A study of Mus musculus with 28 samples.

Results

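The sequence nearest to the centromeres of the mouse autosomes was described here as 475 windows of 200 kb, which tile 3 to 8 Mb of chromosomes 1 to 19 in the mm9 build, 25 windows per chromosome. They cover 95 Mb of the 2655 Mb segmented in all, or 475 of 13284 such windows. Position alone chose them, and no measured value was used. They were set against the rest of the autosomes beyond 8 Mb, 2320 Mb in 11609 windows, of which 11590 were whole.

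The cells were primary mouse embryonic fibroblasts (MEFs) that had been grown from 129s2 embryos of 14.5 days and were at passage 3 to 4. KO cells were SirT7-/- and WT cells were wild type, and both were treated as GS or NT. The labels expand neither abbreviation, and the title of the series concerns glucose starvation. ChIP-seq with antibodies against H3K27me3 and macroH2A1.1 (mH2A1) was made in KO-GS, KO-NT, WT-GS and WT-NT cells, and SIRT7 ChIP-seq in WT-GS and WT-NT cells only, with 2 replicates per group. How many embryos or lines the replicates came from is not stated, and no file used here measures SIRT7 in KO cells, so the KO label was not checked. Nor do the files hold expression values against which the cell type could be checked.

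The authors deposited 4 chromatin segmentations, 1 for each genotype and treatment, each named in the labels of both replicates' H3K27me3 and mH2A1 libraries. A segmentation gives each 200 bp bin 1 of 4 states, U1 to U4, whose meaning the labels do not give. Nor do they say whether a state was defined alike in all 4 segmentations, so a difference in U2, U3 or U4 between conditions compares states of the same name. U2, U3 and U4 together are called marked sequence below, as a working name, and the marked share is the percentage of bases in these states. They also deposited 2 lists of SIRT7 peaks, 1 from GS and 1 from NT cells, each tied to both WT replicates. Each segmentation or list stands for both replicates, and the labels do not say how these were combined. No value below therefore has a replicate error, the read depth is unknown, and no comparison has a test. Where an SD is given it is over the 19 chromosomes and describes spread along the genome only. Intervals are exact 95% intervals that cover counting error only.

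Mouse autosomes carry their centromere at the low-coordinate end, beside arrays of satellite repeats that are packed as constitutive heterochromatin and are missing from the assembly. The sequence that follows is the first unique sequence of the chromosome arm. H3K27me3 is the mark laid down by Polycomb repressive complex 2, macroH2A1.1 is a histone H2A variant with a macrodomain that can bind ADP-ribose metabolites, and SIRT7 is a nuclear NAD-dependent deacylase known for its role at ribosomal DNA. The unassembled initial 3 Mb of the autosomes was U1 in all but 2 of its 285000 bins in each KO segmentation and in all of them in both WT segmentations. U1 therefore includes sequence without signal. Signal tracks were not analysed, so bins of low signal and bins of no signal cannot be told apart.

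Centromere-near sequence was less marked than the rest of the autosomes in all 4 segmentations. The marked share of the 3 to 8 Mb windows was 22.3% in KO-GS, 21.9% in KO-NT, 26.1% in WT-GS and 25.6% in WT-NT cells. In the rest of the autosomes it was 28.6% in KO-GS, 27.3% in KO-NT, 32.0% in WT-GS and 31.6% in WT-NT cells. The difference was -6.28, -5.38, -5.88 and -6.01 percentage points, in the same order. Chromosomes varied far more than that, for the SD of the difference over the 19 chromosomes was 11.7 in KO-GS, 12.1 in KO-NT, 13.2 in WT-GS and 13.4 in WT-NT cells. In each of the 4 segmentations the windows near the centromere were the less marked on 12 chromosomes and the more marked on 7. Each segmentation comes from a population of cells, so a mark in fewer cells and less of it per cell cannot be told apart.

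The 3 marked states were not reduced in proportion. U4, the rarest state, covered 1.10% of the centromere-near windows against 1.93% of the rest in KO-GS, 0.614% against 1.05% in KO-NT, 0.959% against 1.78% in WT-GS and 1.26% against 2.21% in WT-NT cells. The U4 share near the centromere was thus 0.539 to 0.585 times that of the rest, and it was lower on 16 or 17 of the 19 chromosomes. U3 covered 5.57% against 8.54% in KO-GS, 5.53% against 8.61% in KO-NT, 5.71% against 8.72% in WT-GS and 5.18% against 7.99% in WT-NT cells. That is 0.642 to 0.655 times the share in the rest, lower on 14 or 15 chromosomes. U2, the most abundant marked state, differed least, at 15.6% against 18.1% in KO-GS, 15.8% against 17.7% in KO-NT, 19.4% against 21.5% in WT-GS and 19.1% against 21.4% in WT-NT cells, and was lower on 11 or 12 chromosomes. The U2 difference depended most on single chromosomes and reached -0.980 percentage points in KO-NT without chromosome 1. With segments under 1 kb joined the U4 differences shrank, to -0.412 in KO-GS, against -0.831 as deposited. Marked sequence near the centromere consequently held more U2, which made up 70.1% of it in KO-GS, 72% in KO-NT, 74.4% in WT-GS and 74.8% in WT-NT cells. In the rest it made up 63.4%, 64.6%, 67.2% and 67.7% of marked sequence. These traits were largely shared with the next 5 Mb, 8 to 13 Mb, where U2 made up 68.9%, 70.5%, 72.8% and 73.2%. The U4 share of 3 to 8 Mb was 0.954 to 0.999 times that of 8 to 13 Mb. For U3 it was 0.862 to 0.894 times.

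The chromosomes differed from each other near their centromeres more than over their remaining length. The SD of the marked share over chromosomes was 13.3 against 3.19 percentage points in KO-GS, 13.5 against 3.04 in KO-NT, 14.5 against 3.45 in WT-GS and 14.7 against 3.42 in WT-NT cells. A stretch of 5 Mb averages less sequence than a whole arm, so blocks of equal length were also compared. Among all 473 blocks of 5 Mb on the autosomes, the mean marked share over the 4 segmentations had an SD of 15.2, with a median of 30.0% and a span of 8.07 to 48.8% between the 10th and 90th percentile. The spread among centromere-near blocks was close to that value.

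Chromosomes 15, 11 and 13 had the most marked centromere-near sequence. Averaged over the 4 segmentations, 44.9% of 3 to 8 Mb was marked on chromosome 15, against 33.1% beyond 8 Mb. Chromosome 11 had 42.9% against 35.3%, and chromosome 13 had 42.2% against 35.6%. The others that were more marked near the centromere were chromosomes 2, 4, 6 and 18. At the low end stood chromosomes 14, 1 and 9. On chromosome 14 the marked share of 3 to 8 Mb averaged 0.228%, against 26.2% beyond 8 Mb, on chromosome 1 it averaged 3.10% against 28.8%, and on chromosome 9 it averaged 8.82% against 34.2%. This was the lowest block of 5 Mb on its chromosome only in the case of chromosome 14. It lay below the median block of its own chromosome on 12 chromosomes and among the 25% of blocks with the lowest share on 5.

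**Figure D1:**
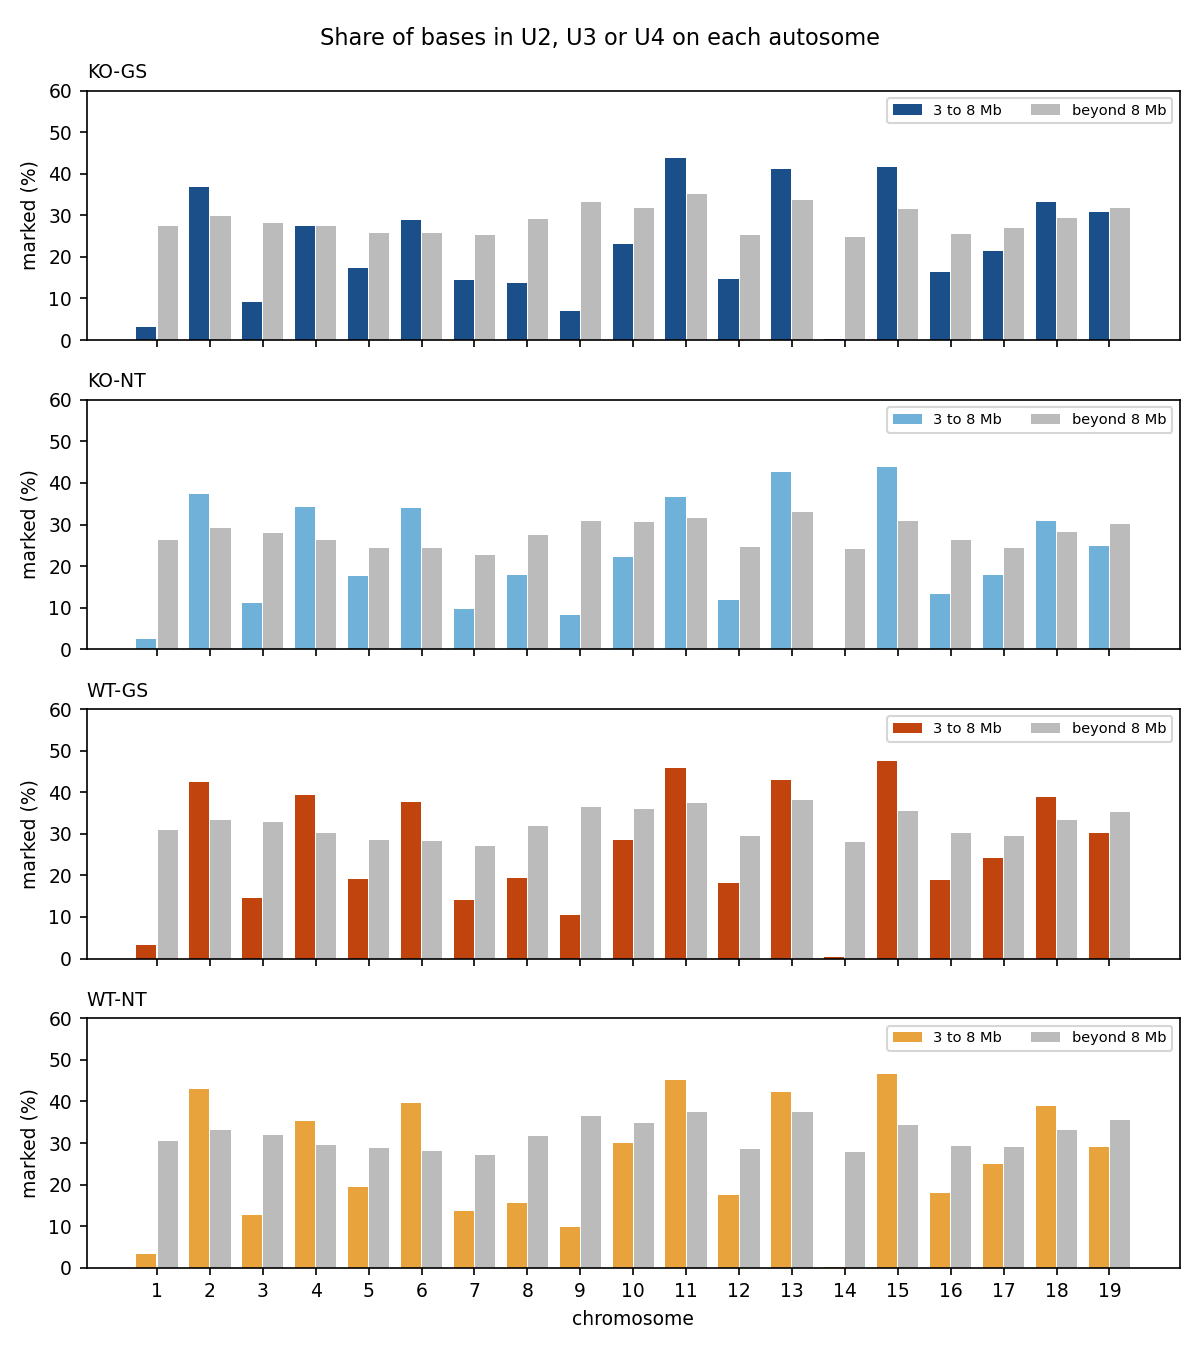
Marked share (percentage of bases in U2, U3 or U4) on each autosome, for the 3 to 8 Mb windows (coloured bars) and for the sequence beyond 8 Mb (grey bars), with 1 panel per segmentation. The coloured bars range from near 0 on chromosome 14 to 47.5% on chromosome 15 in WT-GS, while the grey bars vary little, with an SD of 3.04 to 3.45 percentage points.

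Of the centromere-near sequence, the start of the assembled part was the least marked. How well reads map there was not measured, so its part in the low shares was not tested. In the first 200 kb the marked share was 6.96 ± 11% in KO-GS, 7.16 ± 11.2% in KO-NT, 8.46 ± 13.1% in WT-GS and 7.87 ± 13.3% in WT-NT cells (mean ± SD over 19 chromosomes). Over the first 1 Mb it was 16.5% in KO-GS, 14.9% in KO-NT, 18.8% in WT-GS and 18.3% in WT-NT cells. The third 1 Mb step, 5 to 6 Mb, was the most marked of the 5 steps, with 28.3% in KO-GS, 27.2% in KO-NT, 31.2% in WT-GS and 31.6% in WT-NT cells, near the averages of the rest of the autosomes. The last step, 7 to 8 Mb, had 20.5% in KO-GS, 22.0% in KO-NT, 27.1% in WT-GS and 25% in WT-NT cells. The share therefore did not climb steadily with distance.

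The first marked bin lay at a median of 147 kb into the assembled sequence in KO-GS, 157 kb in KO-NT, 139 kb in WT-GS and 132 kb in WT-NT cells. Chromosome 14 was the extreme in all 4, with no marked bin for 1121.2 kb in both KO segmentations and 1121 kb in both WT segmentations. That first bin was U3 on 13 of 19 chromosomes in KO-GS, 14 in KO-NT, 16 in WT-GS and 14 in WT-NT cells. U3 is thus the usual state of the first marked bin, although U2 covers more of these windows. By number, U3 segments in 3 to 8 Mb were close to U2 segments. They numbered 2565 against 2334 in KO-GS, 1896 against 1835 in KO-NT, 2372 against 2400 in WT-GS and 2583 against 2577 in WT-NT cells. The first bins of other marked runs were not compared. Whether a U3 start is particular to the first marked bin was therefore not tested.

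Low marked shares were not particular to the first 5 Mb. The next 5 Mb, 8 to 13 Mb, had 23.8% in KO-GS, 23.1% in KO-NT, 27.5% in WT-GS and 27.3% in WT-NT cells. The 3 to 8 Mb windows lay 1.12 to 1.72 percentage points below that, and were the more marked of the pair on 10 or 11 chromosomes. When the autosomes were divided into 11 successive blocks of 5 Mb between 3 and 58 Mb, 3 to 8 Mb was the second lowest of the 11 in KO-GS, KO-NT and WT-GS and the third lowest in WT-NT. The lowest of the 11 blocks in WT-GS, with 18.8%, was 18 to 23 Mb. At the other end of the chromosomes the last 5 Mb had 33.3% in KO-GS, 29.7% in KO-NT, 35.8% in WT-GS and 35.5% in WT-NT cells, more than the centromere-near windows on 12 to 15 chromosomes.

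**Figure D2:**
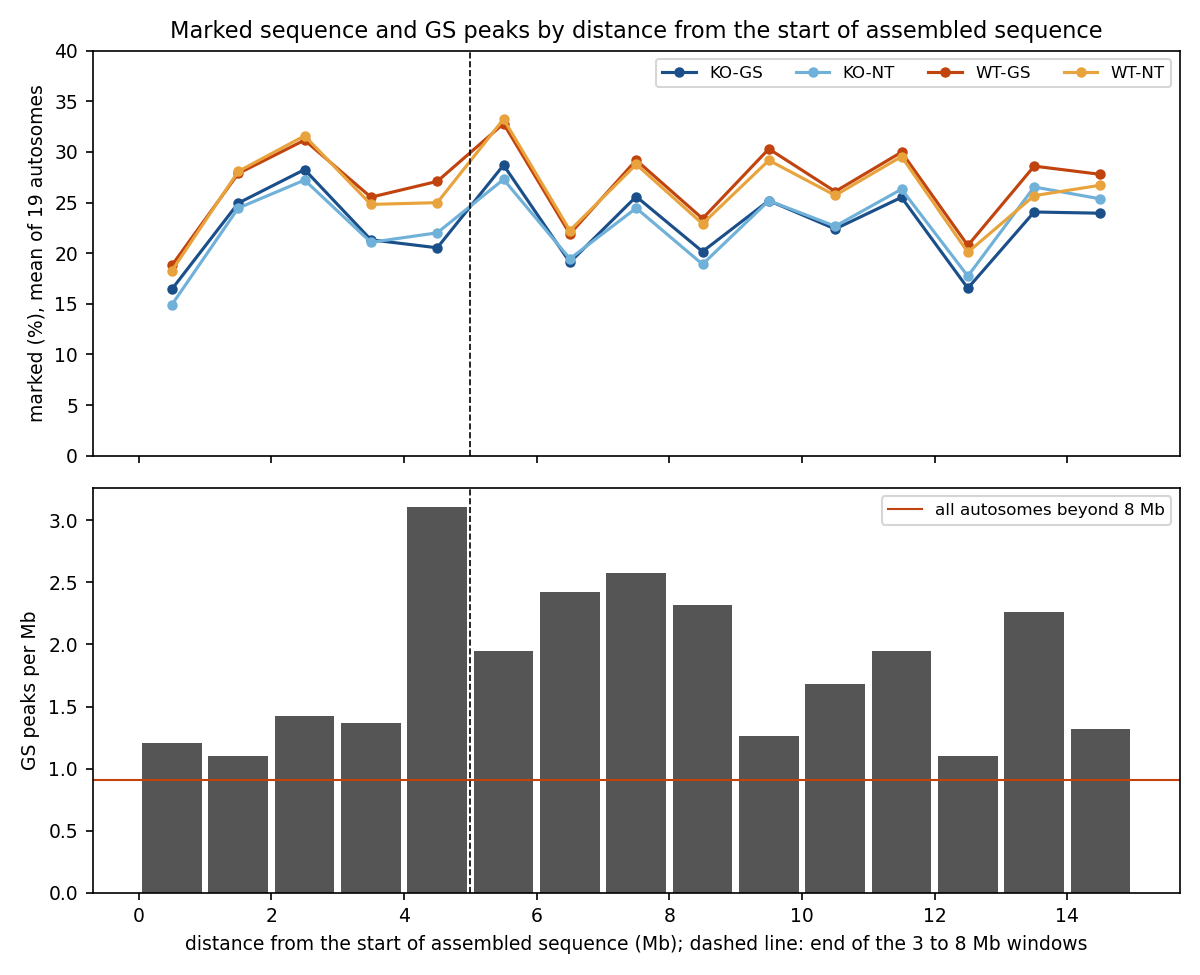
Marked share (upper panel, mean of 19 autosomes in percent) and SIRT7 peaks of GS cells per Mb (lower panel), in steps of 1 Mb from the start of assembled sequence at 3 Mb. The dashed line is the end of the 3 to 8 Mb windows. The first step is the least marked, at 14.9 to 18.8%, and the fifth step has the most GS peaks, 59 on the 19 autosomes.

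Within the 475 windows the marked share was uneven. Averaged over the 4 segmentations it had a median of 15.7%, against 21.0% in the whole windows beyond 8 Mb. Windows marked over at least 50% of their bases numbered 83 (17.5%), against 3035 of 11590 (26.2%), and windows marked over at least 75% numbered 29 (6.11%), against 1280 (11%). Empty windows were not more common than elsewhere. Those that were U1 in every bin of all 4 segmentations numbered 84 (17.7%), against 1995 (17.2%) in the rest and 17.2% of all 12065 whole autosomal windows from 3 Mb on. Near the centromere, then, highly marked windows were fewer, while the share of empty ones was close to that of the rest.

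The empty windows were concentrated on a few chromosomes. Chromosome 14 held 18, chromosome 1 held 12, chromosome 9 held 9 and chromosome 7 held 8, while chromosomes 2, 6 and 11 held 0. The longest run of U1 shared by all 4 segmentations within 3 to 8 Mb had a median of 507 kb over the chromosomes. It ranged between 166 kb on chromosome 11 and 1211 kb on chromosome 14, where it spanned 4959401 to 6170200.

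Marked sequence near the centromere also came in shorter runs. A run of consecutive marked bins had a mean length of 14.3 kb against 19.8 kb in the rest in KO-GS, 15 against 18.5 kb in KO-NT, 16.9 against 22.2 kb in WT-GS and 17.5 against 23.1 kb in WT-NT cells. The number of runs per Mb was close in both, at 15.6 against 14.5 in KO-GS, 14.6 against 14.7 in KO-NT, 15.5 against 14.4 in WT-GS and 14.6 against 13.6 in WT-NT cells. Runs, which were ended at 8 Mb, were thus shorter near the centromere and about as frequent. U4 appeared mostly as single bins of 0.2 kb in both parts of the autosomes, and its segments were fewer per Mb near the centromere, with 34.2 against 52.8 in KO-GS, 20.1 against 30.7 in KO-NT, 30.0 against 47.9 in WT-GS and 37.1 against 56.6 in WT-NT cells.

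The 5 windows with the highest mean marked share were almost wholly marked in every condition. On chromosome 13, 6000001 to 6200000 was marked over 100% of its bases in all 4 segmentations. Next came 5000001 to 5200000 of chromosome 2 with a mean of 99.7%, and 6400001 to 6600000 of chromosome 19 with a mean of 98.85%. Windows 5400001 to 5600000 of chromosome 15 and of chromosome 13 followed, with means of 98.4% and 97.1%. All 5 held 0 GS peaks. On the map of the windows they belong to a block of dark windows on chromosome 13 and to more scattered ones elsewhere.

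**Figure D3:**
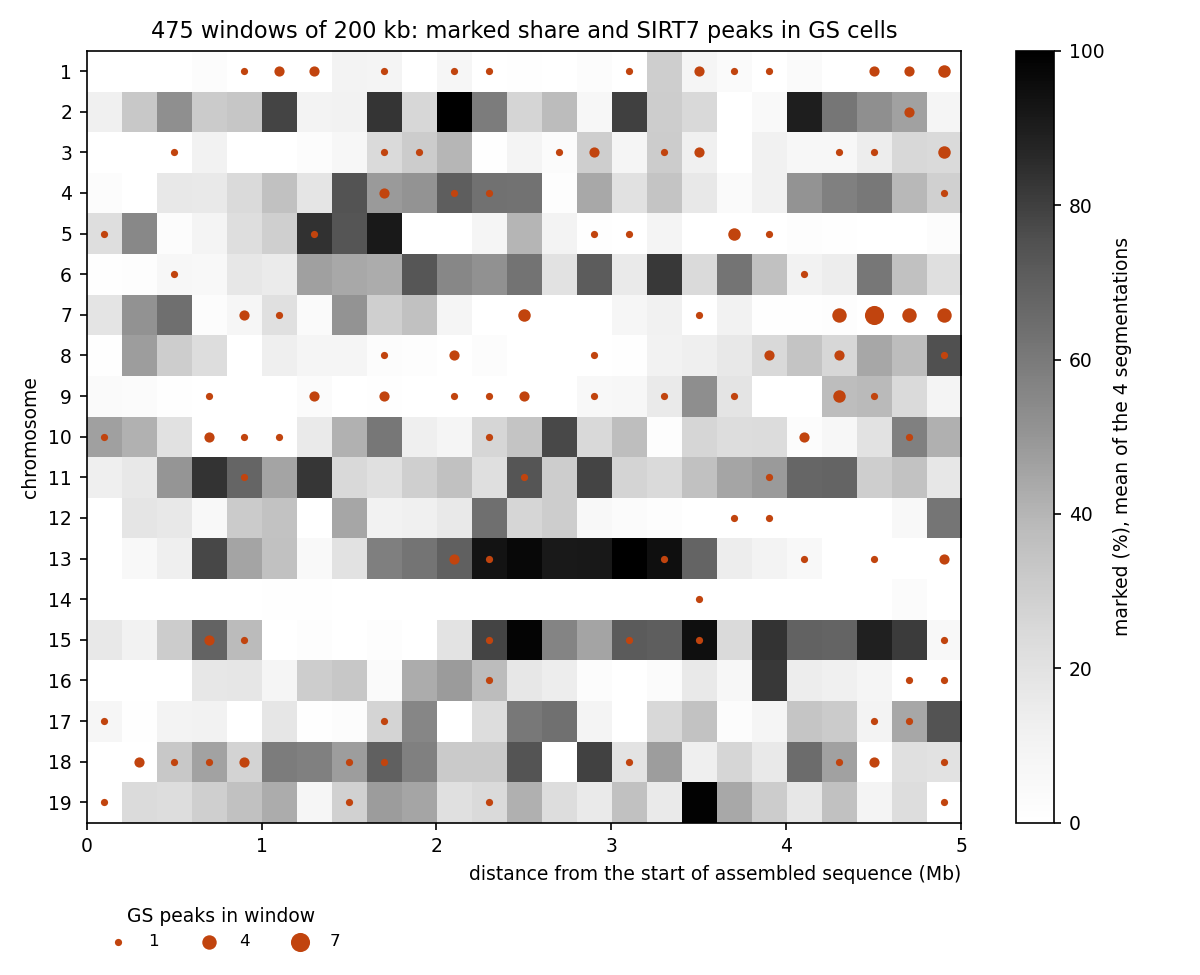
The 475 windows by chromosome (rows) and distance from the start of assembled sequence in Mb (columns), shaded by the mean marked share of the 4 segmentations in percent, with circles whose area is proportional to the number of GS peaks in the window. Chromosome 14 is nearly blank, chromosome 13 has a run of dark windows, and the 4 windows with at least 4 GS peaks lie side by side on chromosome 7.

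SIRT7 peaks of GS cells were denser near the centromere than in the rest of the autosomes. The GS list had 156 peaks with their midpoint in 3 to 8 Mb, or 1.64 per Mb (interval 1.39 to 1.92), against 2116 beyond 8 Mb, or 0.912 per Mb (interval 0.873 to 0.952). The ratio of the densities was 1.80 (interval 1.52 to 2.12). The windows made up 3.93% of the autosomal length from 3 Mb on and held 6.87% of the 2272 autosomal GS peaks. In the NT list they held 2 peaks in 2 windows (0.421% of windows, against 0.464% of all autosomal windows), or 0.0211 per Mb, against 56 beyond 8 Mb, or 0.0241 per Mb, a ratio of 0.872 (interval 0.103 to 3.30). With 2 NT peaks, an excess of the size seen in the GS list was not detectable. Peaks in a list are clustered and not independent, and the series has no SIRT7 ChIP from KO cells, so listed peaks that need no SIRT7 could not be set apart.

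The excess of GS peaks near the centromere was uneven over chromosomes. Their density was higher in 3 to 8 Mb than beyond it on 12 chromosomes and lower on 7, with a mean of 1.64 (SD 1.37) against 0.903 (SD 0.158) peaks per Mb over the 19 chromosomes. Chromosome 7 had 26 peaks near its centromere, or 5.20 against 0.955 per Mb, chromosome 1 had 20, or 4 against 1.01 per Mb, and chromosome 9 had 16, or 3.20 against 0.672 per Mb. Together with chromosomes 3 and 18 these 3 held 89 of the 156 peaks (57.1%). Chromosome 14 had 1 peak, or 0.2 against 1.08 per Mb, and chromosomes 2, 6 and 12 had 2 each. Without chromosome 7 the ratio was 1.59, and leaving out each other chromosome gave at most 1.91, without chromosome 14.

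**Figure D4:**
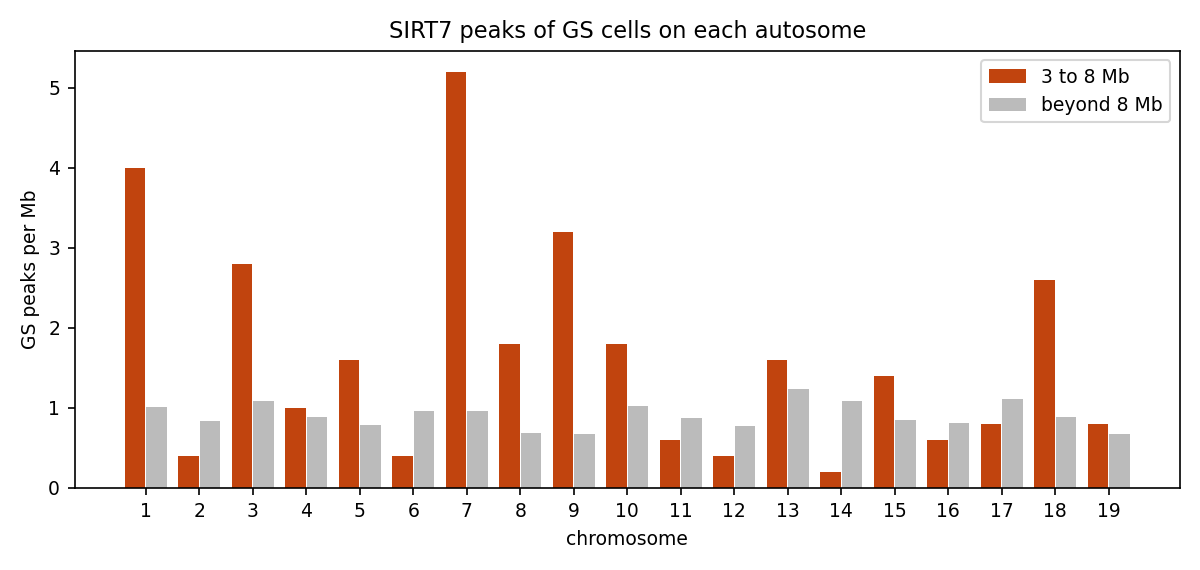
SIRT7 peaks of GS cells per Mb on each autosome, in the 3 to 8 Mb windows (coloured bars) and beyond 8 Mb (grey bars). The coloured bars range between 0.2 on chromosome 14 and 5.2 on chromosome 7, while the grey bars lie between 0.672 on chromosome 9 and 1.23 on chromosome 13.

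Chromosomes with little marked sequence stood at both ends of this order. Chromosomes 1 and 9 combined a low marked share with many GS peaks, whereas chromosome 14, the least marked, had a single GS peak. Chromosomes 2 and 6, which had no wholly unmarked window, had 2 GS peaks each, and chromosome 11, also without one, had 3. Chromosomes 18 and 12 had 2 such windows each, but 13 GS peaks on chromosome 18 and 2 on chromosome 12.

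A raised GS density was shared with the sequence that follows. The 8 to 13 Mb block had 200 GS peaks, or 2.11 per Mb, so that the ratio of 3 to 8 Mb over it was 0.780 (interval 0.629 to 0.966), and 13 to 18 Mb had 158. The 18 to 23 Mb block had 104, and the 7 blocks after that had 76 to 113. The centromere-near windows had the third highest number of the 11 positions. Compared with the last 5 Mb of the autosomes, which had 57 peaks or 0.6 per Mb, the ratio was 2.74 (interval 2.01 to 3.78). Within 3 to 8 Mb the 5 steps of 1 Mb had 23, 21, 27, 26 and 59 GS peaks, so the step farthest from the centromere held the most. In the nearer part, 3 to 5.5 Mb, the 62 GS peaks gave a ratio of 1.43 over the rest of the autosomes.

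Chromosome 7 gave 19 of the 59 peaks of that last step. The other chromosomes together gave 40 there, against 20 to 25 in the steps before it. On chromosome 7 the 5 steps of 1 Mb had 2, 1, 3, 1 and 19 GS peaks, and the 5 steps after 8 Mb had 13, 16, 16, 3 and 3. The dense stretch therefore began in the last centromere-near Mb and ran on past 8 Mb. Windows with at least 4 GS peaks numbered 4 of 475 (0.842%), against 12 of 11590 in the rest (0.104%) and 0.133% of all autosomal windows, and all 4 lay next to each other on chromosome 7. The window 7200001 to 7400000 had 4 peaks, 7400001 to 7600000 had 7, 7600001 to 7800000 had 4 and 7800001 to 8000000 had 4. These windows were almost free of marked sequence, with a mean marked share of 1.45% in the first of them and 0% in the other 3. When GS peaks less than 100 kb apart were joined into clusters, 2 clusters of at least 4 peaks lay near the centromere and held 11.5% of the peaks there, against 16 clusters with 3.88% of the peaks in the rest. Near the centromere these were 1 with 13 peaks from 7343072 to 7642879 and 1 with 5 peaks from 7769605 to 7852686, both on chromosome 7.

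Over all chromosomes, more windows near the centromere held a GS peak. At least 1 GS peak lay in 107 of the 475 windows (22.5%), against 1745 of 11590 (15.1%) in the rest and 15.4% of all autosomal windows. Peaks that stood alone, with no other GS peak within 100 kb, made up 51.3% of the peaks near the centromere (80 of 156) and 68.2% of those beyond 8 Mb (1443 of 2116). With clusters counted once within each of these regions, the density was 1.12 against 0.745 clusters per Mb.

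Most GS peaks near the centromere lay in U1, in nearly the same proportion as elsewhere. The backgrounds differed, for in WT-GS U1 covered 73.9% of all bases near the centromere and 68.0% of those in the rest. Bins that were U1 in all 4 segmentations made up 68.9% of those near the centromere. Each peak took the state that covered most of its bases. In the WT-GS segmentation, 132 of 156 peaks were in U1 (84.6%, interval 78.0 to 89.9), against 1809 of 2116 (85.5%, interval 83.9 to 87.0). U2 held 21 (13.5%) against 266 (12.6%), and U3 held 3 (1.92%) against 41 (1.94%). U4 segments, with a median of 0.2 kb, were too short to cover most of a typical peak, so that rule could hardly give a peak U4. Peaks that were in U1 in all 4 segmentations numbered 123 (78.8%) near the centromere and 1696 (80.2%) in the rest. The nearest marked bin was farther away near the centromere, at a median of 71.1 kb against 44.0 kb in KO-GS, 84.6 against 44.8 kb in KO-NT, 64.1 against 30.0 kb in WT-GS and 72.8 against 35.1 kb in WT-NT. Less of the sequence there was marked, and the distance was not computed for positions without a peak. Whether the longer distance is a trait of the peaks was therefore not tested.

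GS density was also compared between windows of a like marked share. In windows with no marked bin in WT-GS, the centromere-near windows had 3.05 GS peaks per Mb (61 peaks in 100 windows, interval 2.33 to 3.92), against 1.49 per Mb in such windows of the rest. Without chromosome 7 these densities were 2.28 and 1.44 per Mb. The 181 windows marked over less than 25% of their bases had 1.16 peaks per Mb (interval 0.836 to 1.57), which includes the 0.990 per Mb of the rest. Those marked over 25 to 50% had 1.42 (interval 0.952 to 2.04) against 0.710, and those marked over at least 50% had 1.3 (interval 0.836 to 1.94) against 0.566. Per Mb of U1 itself there were 1.88 against 1.15 peaks, a ratio of 1.64, and per Mb of U2 there were 1.14 against 0.532, a ratio of 2.14. The values for U3 rest on 3 peaks near the centromere.

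The GS peaks there resembled those elsewhere in length and in the score the authors deposited with each peak. Their median length was 1289 bp against 1169 bp, and their median score was 620.5 against 630.0. The labels do not say how that score was made, and it served only for ranks within a list. The 5 centromere-near GS peaks with the highest score lay on 5 chromosomes. On chromosome 10, 3098576 to 3100574 (score 1000, 1999 bp) was U1 in all 4 segmentations, within the first 200 kb of assembled sequence. On chromosome 17, 4626129 to 4626725 also had a score of 1000, followed by 3901713 to 3904077 on chromosome 7 with 973 and 6638355 to 6639028 on chromosome 1 with 941, each in U1 in all 4. The fifth, 3904874 to 3905364 on chromosome 11 with a score of 934, was in U3 in all 4.

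Both NT peaks near a centromere were also in the GS list. They lay on chromosome 1 from 6638382 to 6639573, with a score of 607, and on chromosome 17 from 4626110 to 4626721, with a score of 1000, and overlapped the GS peaks named above on these chromosomes. Each was in U1 in all 4 segmentations. Of the 56 NT peaks beyond 8 Mb, 30 overlapped a GS peak (53.6%) and 39 were in U1 in all 4 (69.6%), so with 2 peaks nothing sets the centromere-near ones apart. Genes were not named for these positions because no annotation of the mm9 build was used here.

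GS and NT cells differed little in marked sequence near the centromere. In WT cells the marked share was 26.1% in GS and 25.6% in NT, a difference of 0.541 percentage points (SD 1.51 over chromosomes), with GS higher on 12 and lower on 7. The rest of the autosomes differed by 0.411 in the same direction. In KO cells it was 22.3% in GS and 21.9% in NT, a difference of 0.366 (SD 3.71), higher on 10 and lower on 9, while the rest of the autosomes differed by 1.27. In KO the largest single differences lay on chromosome 11, with 43.8% in GS against 36.7% in NT, and on chromosome 4, with 27.5% in GS against 34.3% in NT. Without chromosome 11 the KO difference was -0.00822 percentage points, so its direction rested on that chromosome.

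KO cells had a lower marked share near the centromere than WT cells under both treatments. In GS cells it was 22.3% in KO and 26.1% in WT, a difference of -3.79 percentage points (SD 3.21), against -3.39 in the rest of the autosomes. In NT cells it was 21.9% in KO and 25.6% in WT, a difference of -3.62 (SD 3.17), against -4.25 in the rest. KO was lower on 17 of 19 chromosomes in each case. The exceptions were chromosomes 7 and 19 in GS, and chromosomes 8 and 13 in NT. Most of the difference was U2, with a difference of -3.79 percentage points in GS, lower in KO on 17 chromosomes, and -3.31 in NT, lower on 16. Chromosome 4 had the largest difference in GS, with 27.5% in KO against 39.3% in WT, and chromosome 11 the largest in NT, with 36.7% in KO against 45.2% in WT.

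U4 moved in opposite directions with GS in KO and in WT cells. In KO it covered 1.10% of the centromere-near windows in GS and 0.614% in NT, a difference of 0.484 percentage points and a ratio of 1.79, higher on 16 chromosomes and lower on 2. In WT it covered 0.959% in GS and 1.26% in NT, a difference of -0.303 and a ratio of 0.76, lower on 18 chromosomes and higher on 1, chromosome 3. The sizes depended on short segments. With bins merged into 1 kb the differences were 0.215 in KO and -0.183 in WT, and joining segments under 1 kb to the ones beside them gave 0.151 and -0.141. The rest of the autosomes differed by 0.879 in KO and by -0.428 in WT, so the directions were not particular to the centromere-near windows. KO-NT had the fewest U4 segments beyond 8 Mb, 30.7 per Mb against 52.8 in KO-GS, 47.9 in WT-GS and 56.6 in WT-NT. It also had the fewest U3 segments there, 28.6 per Mb against 40.7, 36.8 and 41.3 in the same order. The KO difference with GS and KO minus WT in NT both use that single segmentation. Chromosomes 19 and 11 had the largest U4 differences there. Chromosome 19 had 4.24% in GS against 1.37% in NT in KO cells, and 3.03% in GS against 4.16% in NT in WT cells. Between genotypes, KO minus WT in U4 was 0.139 percentage points in GS, higher in KO on 12 chromosomes and lower on 6, and -0.647 in NT, lower in KO on 18. With short segments joined these differences were 0.0827 and -0.21 (0.0642 and -0.334 with merged bins).

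U3 differed little. With GS it was higher by 0.531 percentage points in WT cells, on 16 chromosomes, against 0.732 in the rest of the autosomes. In KO cells the difference was 0.0488, higher on 9 chromosomes and lower on 10. KO minus WT was -0.138 in GS and 0.345 in NT.

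Most bins kept their state. In 82.8% of the centromere-near bins all 4 segmentations gave the same state, against 81.3% in the rest. The bins that changed state were 9.96% between GS and NT in KO cells, 9.16% between GS and NT in WT cells, 9.71% between KO and WT in GS cells and 10.3% between KO and WT in NT cells, against 11.1%, 9.86%, 10.1% and 11.3% in the rest. Since less of the sequence near the centromere was marked, the changed bins were also counted as a share of those marked in either segmentation of the pair. On that scale the order turned round, with 38% against 34.5% in the rest for GS and NT in KO cells, 31.2% against 28.0% in WT cells, 34.6% against 29.8% for KO and WT in GS cells and 36.8% against 33.8% in NT cells.

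Windows that differed by at least 10 percentage points of marked share were a minority in each comparison. Between GS and NT in WT cells, 35 windows were higher in GS (7.37%, against 5.3% of all autosomal windows) and 20 were lower (4.21%, against 3.69%). In KO cells 36 were higher in GS (7.58%, against 10.8%) and 42 were lower (8.84%, against 6.79%). Across all autosomal windows GS was thus more often higher than lower in KO cells. Near the centromere the counts stood the other way, by 42 windows to 36. The marked share there was nevertheless 0.366 percentage points higher in GS in KO cells. At other thresholds the directions were not counted separately, so whether these counts depend on the threshold was not tested. Between KO and WT, 80 windows were lower in KO in GS cells (16.8%, against 14.4%) and 2 were higher (0.421%, against 0.522%). In NT cells 76 were lower in KO (16.0%, against 17.8%) and 7 were higher (1.47%, against 1.62%). Windows lower in KO under both treatments numbered 29 (6.11%, against 569 or 4.91% of windows in the rest), and those higher under both numbered 0 in each part of the autosomes. In both genotypes, 2 windows were higher in GS (0.421%, against 88 or 0.759%) and 9 were lower (1.89%, against 96 or 0.828%).

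**Figure D5:**
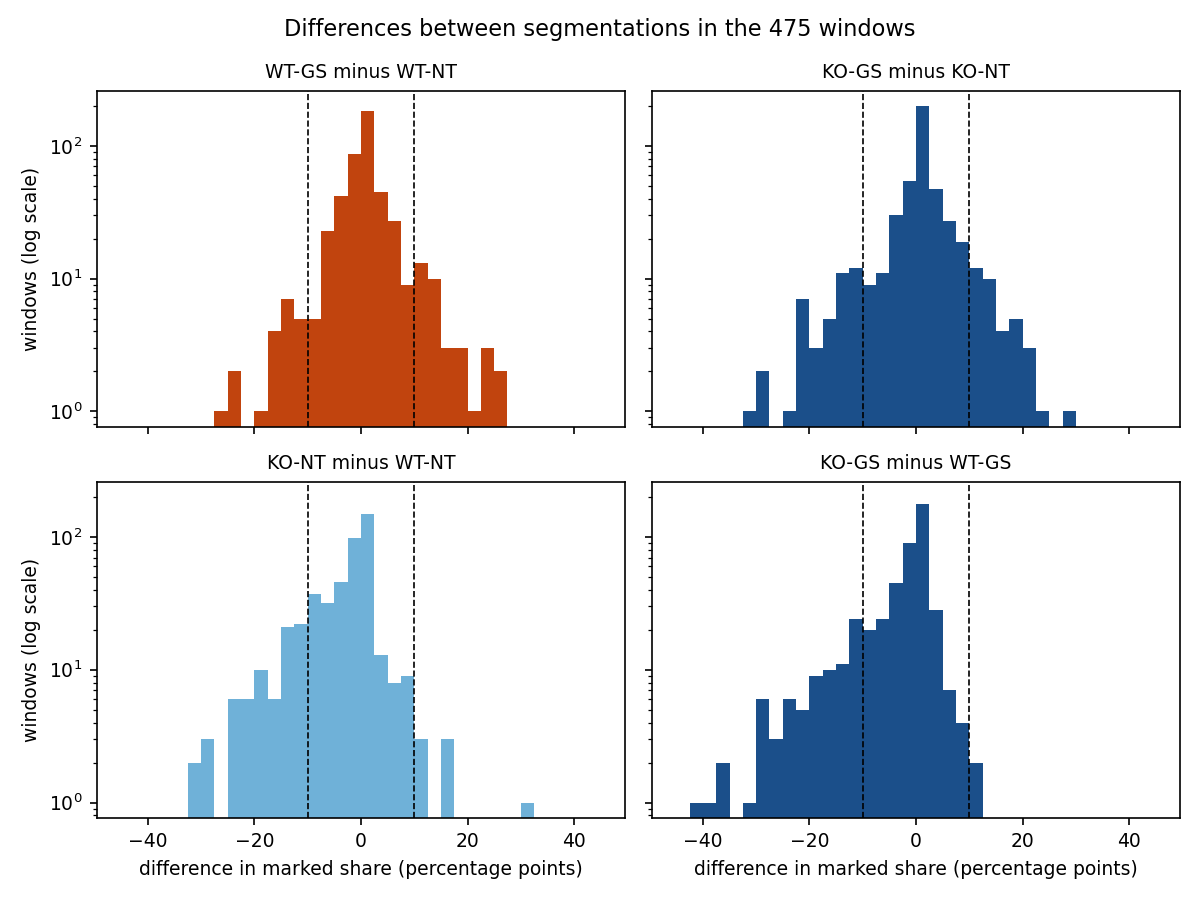
Number of the 475 windows (log scale) by the difference in marked share between 2 segmentations, in percentage points, with dashed lines at 10 in each direction. Both KO minus WT panels lean to the negative side, with 76 windows at or past the lower line in NT cells and 80 in GS cells, while both GS minus NT panels spread to both sides.

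Single windows moved by up to 40.9 percentage points. The largest falls in KO-GS against WT-GS lay in 7200001 to 7400000 of chromosome 2, with 36.5% in KO and 77.4% in WT, in 7200001 to 7400000 of chromosome 4, with 37.5% and 76.1%, and in 5200001 to 5400000 of chromosome 4, with 40.8% and 77.7%. Of these, the windows on chromosome 2 and at 5200001 of chromosome 4 were also among the largest falls with GS in KO cells, since KO-NT had 65.8% and 70.8%. These windows were named for a low KO-GS against WT-GS and KO-NT, so that order follows from the choice. WT-NT, which played no part in it, had 64.1% and 63.2%, also above KO-GS. WT-GS was the highest of the 4 segmentations in both. The largest rises in KO-GS against WT-GS were 11.9 percentage points, at 5000001 to 5200000 of chromosome 6 (54.7% in KO, 42.8% in WT) and at 3600001 to 3800000 of chromosome 8 (29.8% in KO, 17.9% in WT).

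In NT cells the largest falls in KO against WT were at 7000001 to 7200000 of chromosome 11, with 47.4% in KO and 77.9% in WT, and at 7800001 to 8000000 and 5600001 to 5800000 of chromosome 17, with 57.0% against 87.5% and 44.4% against 73.6%. The window on chromosome 11 had 72.3% in KO-GS and 70.4% in WT-GS, so KO-NT alone was low there. The largest rise was at 7800001 to 8000000 of chromosome 8, with 92.1% in KO-NT and 61.3% in WT-NT. In GS cells the genotypes stood the other way round in that window, with 62.0% in KO and 85.1% in WT.

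With GS in WT cells, the largest rises were at 7400001 to 7600000 of chromosome 4 (76.1% in GS, 49.0% in NT), 5600001 to 5800000 of chromosome 13 (100% in GS, 73.8% in NT) and 3800001 to 4000000 of chromosome 6 (35.5% in GS, 10.6% in NT). The largest falls were at 6400001 to 6600000 of chromosome 10 (18.3% in GS, 44.5% in NT) and at 5000001 and 6600001 of chromosome 6 (42.8% in GS against 66.0% in NT, and 60.2% against 83.3%). In KO cells the largest rise with GS was at 5200001 to 5400000 of chromosome 16 (48.9% in GS, 20.2% in NT), and the largest fall at 7800001 to 8000000 of chromosome 8 (62.0% in GS, 92.1% in NT). These single windows have no replicate check.

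The window 6400001 to 6600000 of chromosome 19 stood out for U4. It was almost wholly marked in all 4 segmentations, with U4 over 26.4% of its bases in KO-GS, 7% in KO-NT, 18.8% in WT-GS and 27.1% in WT-NT, while U3 covered 68.9%, 87.0%, 77.1% and 66.8%. It had the largest U4 difference of the 475 windows in all 4 comparisons, a rise in KO-GS against KO-NT and in KO-GS against WT-GS, and a fall in WT-GS against WT-NT and in KO-NT against WT-NT. U3 was high where U4 was low, so the total marked share hardly moved. Its marked share was 100% in KO-GS, 97.2% in KO-NT, 98.2% in WT-GS and 100% in WT-NT.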

How the data were processed

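ChIP-seq of H3K27me3 and mH2A1 (8 libraries each), SIRT7 (4) and input (8) was made in MEFs. Per the submitters' processing notes, which give no roles, the tools were MACS 1.4.2, Bowtie, deepTools 2.4.2, SAMtools 0.1.19, FastQC 0.11.3 and Trimmomatic 0.36, and the builds hg19 and mm9. The authors deposited 4 segmentations (state names U1 to U4 per 200 bp bin) and 2 peak lists with a score per peak. The labels tie each of them to both replicates and do not say how these were combined. Which tool made the segmentations is not given in the sources used. Chromosome ends equalled mm9 lengths rounded down to the bin, and coordinates are mm9, counted from 1.

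State shares per window, chromosome and region, runs of bins, and peaks by midpoint were computed with Python 3.11.15, NumPy 2.4.6 and SciPy 1.17.1. The steps were tested on simulated segmentations and peaks. Poisson and Clopper-Pearson intervals are at 95%, and a count of 0 allows 3 counts. A peak in 2 lists overlapped by at least 1 bp. Windows named were the 5 most marked, the 3 largest rises and falls per comparison (1 each for U3 and U4) and those with at least 4 GS peaks. NT peaks, the 5 GS peaks of highest score and the 3 highest and lowest chromosomes were also named. Not all windows selected by this rule are printed. The windows, lists and measures were chosen with earlier results of these data known. Comparisons that use the same segmentation are not independent. Alternatives were merged bins, joined short segments, other window sizes and thresholds, other region limits, clustered or high-scoring peaks, and chromosomes left out. No DNA sequence or gene is given, because no mm9 genome or annotation was used here. Signal tracks were not analysed.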

Additional observations from a re-analysis of the deposited data

Results flagged for a closer look

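Within 3 to 8 Mb, U4 differed with GS by 0.484 percentage points in KO and by -0.303 in WT segmentations, which are opposite directions. With segments under 1 kb joined, these were 0.151 in KO and -0.141 in WT. U2 did so by -0.166 in KO and 0.312 in WT. With 1 segmentation per group, the differences between genotypes were not tested. For U2 the chromosomes were split, with GS higher on 10 and lower on 8 in KO, and higher on 9 and lower on 10 in WT.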

How the results depend on the processing

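No paired analysis was possible because each file stands for both replicates together, so leaving out a replicate could not be run either. Instead, 244 alternative values were computed over 40 results. A share was called moved when it changed by more than the Wilson 95% half-width for the near share over 475 windows, a window count when it changed over 1.5 times, and a density ratio when it left its interval. That half-width counts adjacent windows as independent. It exceeds the differences between conditions in U3 and U4, and those between GS and NT in U2 and the marked share. It also exceeds KO minus WT in the marked share in NT, and near minus rest in U2 and U4. The loss of such a difference could therefore not be marked as moved. In WT-GS, near minus rest in U2 went from -2.05 to -4.03 percentage points with positions 3 to 5.5 Mb and was not called moved. All 4 differences in U4 between conditions kept their sign but shrank by over 1.5 times with bins merged or short segments joined. The marked share near the centromere minus the rest stayed negative in every alternative run, and ranged from -7.43 to -4.34 percentage points over the 4 segmentations.

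Direction changed for 4 results. The KO difference in marked share between GS and NT (0.366) ranged from -0.00822 without chromosome 11, the only one whose omission turned it round, to 0.764. The KO difference in U2 (-0.166) became 0.00505 with segments under 1 kb joined and was also positive without chromosome 4, 6 or 8 (up to 0.208). That in U3 (0.0488) was negative without chromosome 2, 16 or 17 (down to -0.0478). The NT peak ratio (0.872) ranged from 0.439 without chromosome 1 to 1.01 without chromosome 4.

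The GS peak ratio (1.80) was 1.48 with peaks within 100 kb counted once, 1.43 for 3 to 5.5 Mb, and 1.59 without chromosome 7. The values 1.48 and 1.43 fell below its interval (1.52 to 2.12) and so counted as moved, though both stayed above 1. Leaving out chromosome 7 was an alternative added after seeing the data, as were the density in unmarked windows and the counts per 1 Mb step without it. Counts of windows that differ followed the threshold and the number of windows. With 5 and 20 percentage points, then windows of 100 and 500 kb, the counts for GS against NT were 144, 16, 179 and 20 in KO (78 as reported), and 120, 9, 130 and 9 in WT (55 as reported). For KO against WT they were 143, 25, 179 and 24 in GS (82 as reported), and 170, 18, 208 and 23 in NT (83 as reported). Depth is unknown, and 2 NT peaks limit any statement on NT.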
